A study of Mus musculus with 18 samples.

Results

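Effector cytokine transcripts were followed in regulatory T cells (Tregs) purified by fluorescence-activated cell sorting from mice that lack CD25 in their Tregs. The 9 genes are *Il10*, *Il4*, *Il5*, *Il13*, *Ifng*, *Il2*, *Il17a*, *Il21* and *Csf2*, chosen by symbol from the 50600 Ensembl identifiers of the deposited count table, and all 9 were found there, whatever their level. CD25 is the α chain of the IL-2 receptor, encoded by *Il2ra*, and the study asked which gene programs of thymic and peripheral Tregs depend on it. RNA-seq counts covered 18 samples in 4 groups, each sample from its own C57BL/6 mouse. Thymic WT Tregs came from 5 Foxp3/RFP reporter mice aged 3 to 4 weeks. Thymic CD25 KO Tregs came from 5 CD25flox/Foxp3-YFP/Cre (CD25cKO) mice of the same age, in which Cre is expressed from the *Foxp3* locus, and which had been "cured" of autoimmunity by an injection of WT splenocytes after birth. Splenic CD25 KO Tregs came from 4 CD25flox/Foxp3eGFP-Cre-ERT2/R26Y mice and splenic WT Tregs from 4 reporter controls with normal CD25. All splenic mice received 5 injections of tamoxifen at 70 mg/kg, begun at 7 to 10 weeks of age, and were taken 10 to 14 days after induction. The inducible Cre is likewise made from the *Foxp3* locus, and tamoxifen also turns on a YFP reporter in the splenic cells. The thymic groups carried different reporter alleles of *Foxp3*, and only the CD25 KO mice are described as injected with WT splenocytes. The WT and CD25 KO arms of the thymus cannot be separated from either difference. Tissue, the date carried in the library names, age, mouse model and tamoxifen changed together between thymus and spleen and cannot be told apart. What that date marks is not stated.

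Tregs restrain other T cells, and the cytokines they make or withhold are part of how they do so. IL-10 is a suppressive cytokine that Tregs themselves use, above all effector Tregs at barrier surfaces. IL-4, IL-5 and IL-13 are the products of type 2 helper cells, IFN-γ of type 1 helper cells, IL-17A of Th17 cells and IL-21 of T follicular helper cells. IL-2 is the growth factor that activated conventional T cells secrete and that Tregs consume through CD25, and GM-CSF, encoded by *Csf2*, drives myeloid cells. Transcripts of these genes are usually scarce in unstimulated T cells, so raw counts are given throughout.

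Thymic libraries held 17239774 to 23993674 counts, and splenic libraries were deeper, with 25258341 to 32639570. A floor of 3 counts, taken as the smallest detectable amount, was worth at most 0.174 CPM (counts scaled to library size) in thymic and 0.119 CPM in splenic libraries, and it covers counting error only. *Il2ra*, the gene deleted, lay at 536 to 701 CPM in thymic WT and 98.9 to 291 CPM in thymic CD25 KO mice, and at 473 to 521 CPM in splenic WT and 162 to 202 CPM in splenic CD25 KO mice. Its log2 fold change was -1.90 (SE 0.298) in the thymus and -1.49 (SE 0.0651) in the spleen, with adjusted p = 0.00239 and 1.39e-09 by edgeR's quasi-likelihood test. Counts per gene cannot show whether the remaining reads lack the deleted part of the transcript. The study itself reports that the deleted exon was missing from them, as shown for the splenic Tregs. *Foxp3*, which defines Tregs, was present at 279 to 594 CPM in the thymus and 198 to 334 CPM in the spleen, and it was lower in CD25 KO mice of both tissues, with log2 fold changes of -0.74 and -0.55. All 7 Treg markers were above the floor in all 4 groups, with 3 higher and 2 lower in splenic CD25 KO mice and 4 lower in thymic ones. Of all genes tested, 9.45% were called at FDR < 0.01 in either direction in the spleen and 6.16% in the thymus. Every library is a bulk sample, in which fewer cells of a type and less RNA per cell cannot be told apart.

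Several of the genes are neighbours in the genome (build GRCm38). *Il4* (chr11:53602982-53618669, minus strand), *Il13* (chr11:53631324-53634702, minus strand) and *Il5* (chr11:53720794-53725106, plus strand) form the type 2 cytokine cluster, with 12.7 kb between *Il4* and *Il13* and 86.1 kb between *Il13* and *Il5*. *Csf2* (chr11:54247271-54249667, minus strand) lies 522 kb beyond *Il5*. *Il2* (chr3:37120523-37125959, minus strand) and *Il21* (chr3:37222759-37232636, minus strand) are 96.8 kb apart. *Il10* is at chr1:131019845-131024974, *Il17a* at chr1:20730905-20734496 and *Ifng* at chr10:118441046-118445892, all on the plus strand.

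The windows of 250 bases upstream of the annotated start site of *Il4*, *Il13*, *Ifng* and *Il21*, from RefSeq (GRCm38.p6), are shown 5′ to 3′ on the gene's strand because *Il4*, *Ifng* and *Il21* moved together in the spleen while the counts of *Il13*, the neighbour of *Il4*, overlapped between the groups. Capitals mark the letters GGAAA, the core read by NFAT, a factor that T cell receptor signaling activates, on either strand (GGAAA or TTTCC).
*Il4*, chr11:53618666-53618915, minus strand: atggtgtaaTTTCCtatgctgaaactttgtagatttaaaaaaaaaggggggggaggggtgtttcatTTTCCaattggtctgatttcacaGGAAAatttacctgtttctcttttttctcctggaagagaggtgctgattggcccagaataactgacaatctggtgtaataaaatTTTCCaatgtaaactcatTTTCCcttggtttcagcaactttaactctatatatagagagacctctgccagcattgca
*Il13*, chr11:53634703-53634952, minus strand: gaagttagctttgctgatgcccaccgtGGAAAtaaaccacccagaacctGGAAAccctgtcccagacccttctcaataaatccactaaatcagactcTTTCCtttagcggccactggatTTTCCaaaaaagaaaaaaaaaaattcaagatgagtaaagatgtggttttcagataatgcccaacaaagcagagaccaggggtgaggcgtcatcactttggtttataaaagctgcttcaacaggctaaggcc
*Ifng*, chr10:118440796-118441045, plus strand: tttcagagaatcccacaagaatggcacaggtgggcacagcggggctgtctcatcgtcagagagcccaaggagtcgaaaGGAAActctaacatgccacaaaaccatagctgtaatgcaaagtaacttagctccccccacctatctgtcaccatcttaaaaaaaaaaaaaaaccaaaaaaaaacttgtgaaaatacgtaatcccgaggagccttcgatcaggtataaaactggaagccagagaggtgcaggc
*Il21*, chr3:37232637-37232886, minus strand: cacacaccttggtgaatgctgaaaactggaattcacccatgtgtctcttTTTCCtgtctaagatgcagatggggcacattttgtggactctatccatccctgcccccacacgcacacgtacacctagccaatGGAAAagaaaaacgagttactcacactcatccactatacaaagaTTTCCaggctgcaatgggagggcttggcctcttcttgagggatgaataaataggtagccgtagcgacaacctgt

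Of the 9 genes, 8 matched an entry of the RefSeq promoter set, and 7 of these 8 held GGAAA at least once, against 55.6% of all 32851 windows of the same length. The *Il4* window held 5 matches, a number reached by 0.39% of all windows, and that of *Il13* held 4, reached by 1.59%. *Il21* had 3 matches, which 6.39% of windows reach, and *Ifng* had 1. *Il2*, *Il5* and *Csf2* had 2 each, and *Il17a* had none. *Il13*, which was not tested in the spleen, held more matches than *Ifng* and *Il21*. *Il10* is the member without an entry, so the gene with the largest splenic change has no window here. Whether the matches bear on the splenic changes was not tested. The AP-1 letters TGANTCA occurred on either strand in the *Il17a* window only, against 6.75% of all windows, and TATAAA on either strand in 4 windows (*Il13*, *Ifng*, *Il2* and *Il17a*), against 12.4%. Motifs were counted separately, so 1 base may belong to more than 1 match. The start site used lay within 5 bases of the GENCODE gene start for 7 of the 8 genes and 232 bases away for *Csf2*. A match is a run of letters, not a shown binding site. The windows compared were not matched for base composition, on which the number of matches depends. G and C made up 37.6% of the *Il4* window and 43.2% of that of *Il13*.

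In splenic Tregs, transcripts of *Il10*, *Ifng*, *Il4* and *Il21* were higher in CD25 KO than in WT mice, by 4.05-fold, 2.38-fold, 2.47-fold and 2.89-fold. Of the 9 members, 5 passed edgeR's filter on low counts, and these 4 of the 5 were called at FDR < 0.01, while *Il2* was tested but not called. Over all 17463 genes tested in the spleen, 9.45% were called in either direction and 5.90% were called higher in CD25 KO. The 4 genes were also those in which every CD25 KO mouse exceeded every WT mouse, an absence of overlap in either direction that 20.5% of all tested genes showed. The members were picked with the study's results known, in which *Il10*, *Ifng* and *Il4* are named from these same samples, so their direction is not independent evidence.

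*Il10*, the suppressive cytokine, had 321 counts over the 4 splenic WT mice, of which replicates 2, 3 and 4 held 66, 61 and 68 and replicate 1 the rest, and 416, 305, 258 and 456 counts in the 4 CD25 KO mice. Every CD25 KO mouse was above every WT mouse, and WT replicate 1 stood above the other WT mice. The mean level was 3.05 ± 1.13 CPM for WT and 12.4 ± 2.77 CPM for CD25 KO (SD, n = 4 each), and the log2 fold change was 2.02 (SE 0.206, adjusted p = 7.33e-06 by edgeR). No other member changed as much. An exact permutation test of the CPM, two-sided, gave p = 0.0286, the smallest that 4 against 4 mice allow, for *Il10* and for each of the other 3 genes called.

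*Il21*, the follicular helper cytokine, had 117, 118, 100 and 63 counts in splenic WT mice and 237, 424, 277 and 325 in CD25 KO mice. The groups did not overlap, and the mouse with 424 counts was the highest of all. Its mean rose from 3.78 ± 0.925 to 10.9 ± 2.67 CPM (SD, n = 4 each), with a log2 fold change of 1.53 (SE 0.187, adjusted p = 3.93e-05 by edgeR). *Il2*, its neighbour on chromosome 3, had 12, 6, 8 and 6 counts in WT and 9, 13, 20 and 16 in CD25 KO mice. The *Il2* groups overlapped, because the lowest CD25 KO mouse fell below the highest WT mouse. The *Il2* levels were 0.306 ± 0.1099 and 0.503 ± 0.168 CPM (SD, n = 4 each), with a log2 fold change of 0.71 (SE 0.362, adjusted p = 0.202 by edgeR, exact permutation p = 0.0571). At these counts a change of *Il2* as large as that of *Ifng* and one of 0 both lay within about 2 SE.

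*Ifng*, the type 1 cytokine, had 82, 78, 58 and 55 counts in splenic WT mice and 156, 158, 162 and 243 in CD25 KO mice. Of the CD25 KO mice 1 stood above the others, and the groups did not overlap. WT mice averaged 2.59 ± 0.429 CPM and CD25 KO mice 6.17 ± 0.877 CPM (SD, n = 4 each), and the log2 fold change was 1.25 (SE 0.156, adjusted p = 4.55e-05 by edgeR). *Ifng* counts may be understated in all groups, since 25.9% of its 1295 exonic bases lie inside *Gm49751* (chr10:118441419-118444140), an unspliced gene model on the same strand, and how reads on shared bases were assigned is not given in the sources used here. *Gm49751*, looked up after the *Ifng* values were seen, had 112, 90, 75 and 81 counts in splenic WT and 193, 179, 132 and 292 in CD25 KO mice, more than *Ifng* itself in 7 of the 8 mice. Its log2 fold change was 1.00 (SE 0.179, adjusted p = 0.00104 by edgeR), and with both rows added the log2 fold change of *Ifng* was 1.12 (SE 0.140, adjusted p = 5.03e-05).

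*Il4*, the type 2 cytokine that opens the chromosome 11 cluster, had 68, 44, 24 and 61 counts in splenic WT mice and 107, 169, 116 and 142 in CD25 KO mice. All CD25 KO mice were above all WT mice, although WT mice differed among themselves more than in *Ifng*. Levels were 1.86 ± 0.717 and 4.62 ± 0.878 CPM (SD, n = 4 each), and the log2 fold change was 1.31 (SE 0.233, adjusted p = 0.00104 by edgeR). The other members of the cluster had too few reads for the filter and were not tested. *Il13*, which acts with IL-4 on epithelium, had 4, 14, 6 and 1 counts in WT and 10, 6, 5 and 5 in CD25 KO mice. The range of *Il13* in WT enclosed that in CD25 KO, and the ratio of summed counts per library size, CD25 KO over WT, was 0.947 with a 95% counting interval of 0.525 to 1.71. *Il5*, the eosinophil growth factor, had 5, 0, 2 and 2 counts in WT and 3, 2, 3 and 4 in CD25 KO mice. Its ratio was 1.21 (95% counting interval 0.469 to 3.26), and most of its libraries sat at or below the floor of 3 counts.

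The remaining members had few or no reads in splenic Tregs. *Csf2* had 1, 0, 4 and 5 counts in WT and 10, 2, 0 and 3 in CD25 KO mice, a ratio of 1.37 with a 95% counting interval of 0.574 to 3.40. *Il17a* had 0 counts in all 8 splenic libraries, which allows at most 0.119 CPM in any 1 of them. Differences in *Il5*, *Csf2* and *Il17a* were not detectable at this depth, and exact permutation tests gave p = 0.714 for *Il5*, 0.971 for *Il13* and 0.800 for *Csf2*. The plot of raw counts per mouse shows the 4 separated genes beside these.

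**Figure D1:**
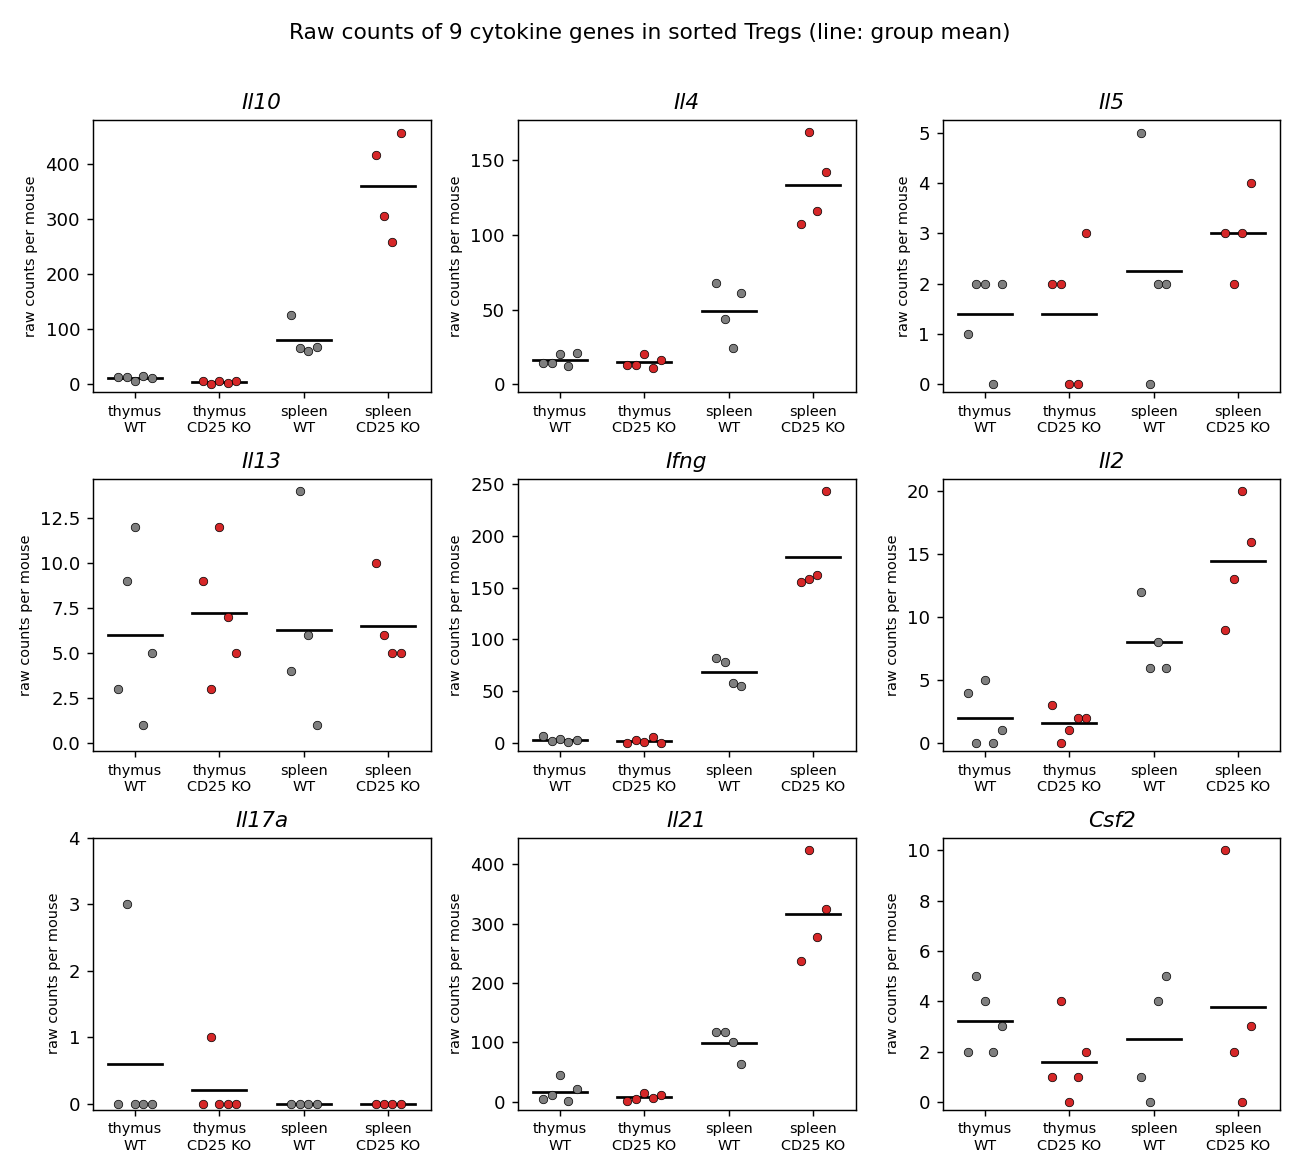
Raw counts of the 9 cytokine genes (y axes, linear, 1 scale per gene) in each of the 18 mice, by tissue and genotype (x axes, WT in grey, CD25 KO in red, lines at group means). In the spleen *Il10*, *Il4*, *Ifng* and *Il21* separate CD25 KO from WT, with *Il10* at 258 to 456 counts in the CD25 KO mice, each above every WT mouse, while *Il5*, *Il13*, *Il17a* and *Csf2* overlap in both tissues.

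In thymic Tregs the same cytokines were scarce, and none was called different between CD25 KO and WT. Only 2 of the 9 members, *Il4* and *Il21*, passed the filter on low counts. By edgeR 0 members were called at FDR < 0.01 and 0 reached an unadjusted p under 0.05. DESeq2 also called 0, and of all members gave an unadjusted p under 0.05 to *Il10* alone, for which it set no adjusted p. Over all 16986 genes tested in the thymus, 6.16% were called.

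Thymic *Il10* had 13, 13, 6, 15 and 11 counts in the 5 WT mice and 5, 0, 6, 3 and 5 in the 5 CD25 KO mice. Of the CD25 KO mice, 4 were below every WT mouse, and the other reached the level of the lowest WT mouse. Levels were 0.532 ± 0.167 and 0.200 ± 0.132 CPM (SD, n = 5 each), and the exact permutation test gave p = 0.0159, where 5 against 5 mice allow 0.00794 at the smallest and 9 members were tested in each tissue. The ratio of summed counts, CD25 KO over WT, was 0.366 with a 95% counting interval of 0.206 to 0.623. The difference was 1 of 9 exact tests, was not adjusted for them, and no thymic member separated the groups without overlap, which 16.3% of all tested thymic genes did.

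*Il4* was even between the thymic groups, with 14, 14, 20, 12 and 21 counts in WT and 13, 13, 20, 11 and 16 in CD25 KO mice. The ranges almost coincided. Levels were 0.738 ± 0.170 and 0.757 ± 0.240 CPM (SD, n = 5 each), and the log2 fold change was 0.02 (SE 0.265, adjusted p = 0.961 by edgeR), with a sign that turned under a correction for GC content. *Il21* had 5, 12, 46, 2 and 22 counts in WT and 1, 5, 15, 7 and 11 in CD25 KO mice. The WT mice alone spanned more than the difference between groups, and the log2 fold change of -0.96 (SE 0.715) had an adjusted p of 0.346 by edgeR. Replicate 3 of thymic WT carried most of the *Il21* reads of its group, and without it the log2 fold change was -0.19, against -1.38 to -0.19 over all mice left out in turn.

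The WT mice with most *Il21* reads also held most reads of *Zbtb16*, which encodes PLZF, a factor of innate-like T cells. *Zbtb16* had 23, 84, 209, 2 and 139 counts in thymic WT mice, in the same mouse order, and 221, 90, 323, 214 and 40 in CD25 KO mice. In CD25 KO mice the mouse with 221 *Zbtb16* counts had 1 *Il21* count, so the orders did not match there. *Zbtb16* itself was not called (log2 fold change 1.15, SE 0.712, adjusted p = 0.257 by edgeR), and its part in the *Il21* values was not tested.

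The other thymic members were near the floor. *Il13* had 3, 9, 12, 1 and 5 counts in WT and 9, 3, 12, 7 and 5 in CD25 KO mice, with a ratio of 1.34 (95% counting interval 0.802 to 2.25). *Ifng* had 7, 2, 4, 1 and 3 counts in WT and 0, 3, 1, 6 and 0 in CD25 KO mice, with a ratio of 0.656 (0.269 to 1.52). *Il13* and *Ifng* overlapped widely between the groups. *Csf2* had 2, 5, 4, 2 and 3 counts in WT and 1, 4, 0, 1 and 2 in CD25 KO mice, with a ratio of 0.558 (0.207 to 1.38). *Il2* ranged from 0 to 5 counts in WT and 0 to 3 in CD25 KO, and *Il5* from 0 to 2 and from 0 to 3. *Csf2*, *Il2* and *Il5* thus overlapped between the groups as well. *Il17a* was read in 2 of the 10 thymic mice, with 3 counts in 1 WT and 1 count in 1 CD25 KO mouse. Exact permutation p-values for *Ifng*, *Il13* and *Csf2* were 0.444, 0.444 and 0.159, and at this depth none of these differences was detectable.

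**Figure D2:**
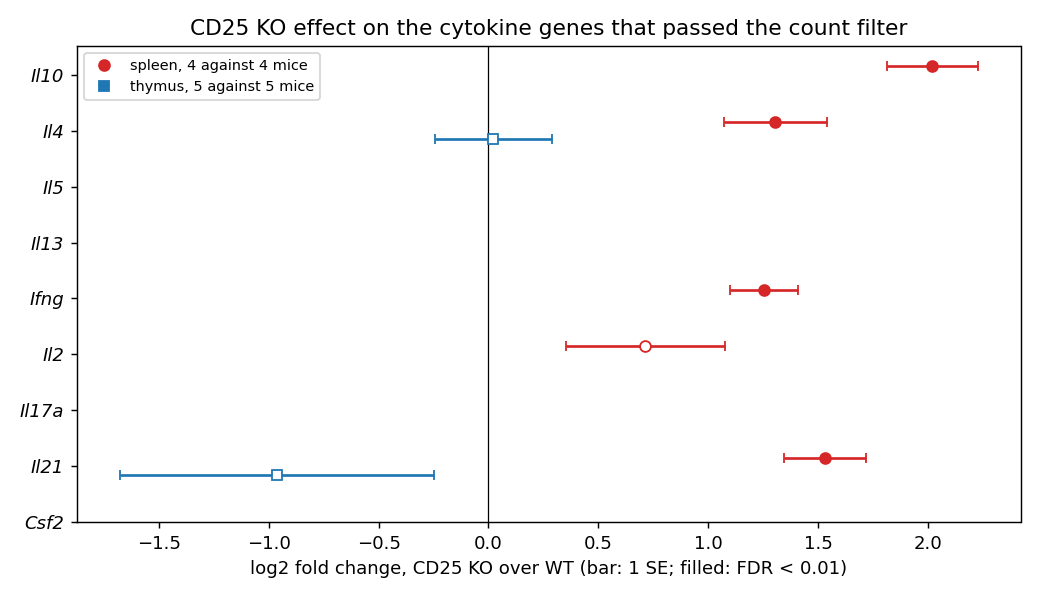
Log2 fold changes of CD25 KO over WT (x axis, bars 1 SE) for the cytokine genes (y axis) that passed the count filter, in spleen (red circles, 4 against 4 mice) and thymus (blue squares, 5 against 5 mice), with filled symbols at FDR < 0.01. The 4 filled splenic values run from 1.25 for *Ifng* to 2.02 for *Il10*, and the thymic values of *Il4* and *Il21* are open at 0.02 and -0.96.

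Whether the CD25 KO effect differed between the tissues was tested directly in 1 edgeR fit of all 18 samples. *Il10* was called, with a splenic effect above the thymic one by 3.46 on the log2 scale (SE 0.531, adjusted p = 2.23e-04), since its reads rose in the spleen and were fewer in CD25 KO in the thymus. *Il10* entered this fit through its splenic reads, since with 0 to 15 counts per mouse it did not pass the filter in the thymus alone, and with at least 10 counts required in every sample it was not tested. It was 1 of 6 members tested, against 6.98% of 18686 genes called in either direction and 4.50% with the splenic effect higher. The other members called in the spleen had positive differences too, but these missed FDR < 0.01. Their differences were 2.52 for *Il21* (SE 0.715, adjusted p = 0.0203), 1.30 for *Il4* (SE 0.383, adjusted p = 0.0248) and 1.86 for *Ifng* (SE 0.703, adjusted p = 0.0732). For *Il2* the difference was 0.88 (SE 0.956, adjusted p = 0.556) and for *Il13* it was -0.48 (SE 0.831, adjusted p = 0.731). *Ifng* and *Il2*, like *Il10*, entered this fit through their splenic reads, since neither passed the filter in the thymus alone. *Il13* passed it in neither tissue alone. The difference of *Il4* is nearly its splenic change, since its thymic log2 fold change was 0.02. *Il21* is therefore not shown to respond differently at this threshold, although without thymic WT replicate 4 it passed (2.79, adjusted p = 0.00640), and without thymic WT replicate 3 the difference was 1.75 (adjusted p = 0.0805). The difference is one between 2 experiments, not between tissues alone.

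Summed over the 9 genes, cytokine reads came to 2.81 ± 1.10 CPM over the 5 thymic WT mice (SD) and to 2.08 ± 0.652 CPM over the 5 thymic CD25 KO mice. In the spleen the sum was 12.0 ± 2.49 CPM in WT, with a range of 9.96 to 15.6, and 35.0 ± 3.04 CPM in CD25 KO, with a range of 30.8 to 37.7 (SD, n = 4 each). CPM were scaled within each tissue, so levels in thymus and spleen are set side by side without a test.

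**Figure D3:**
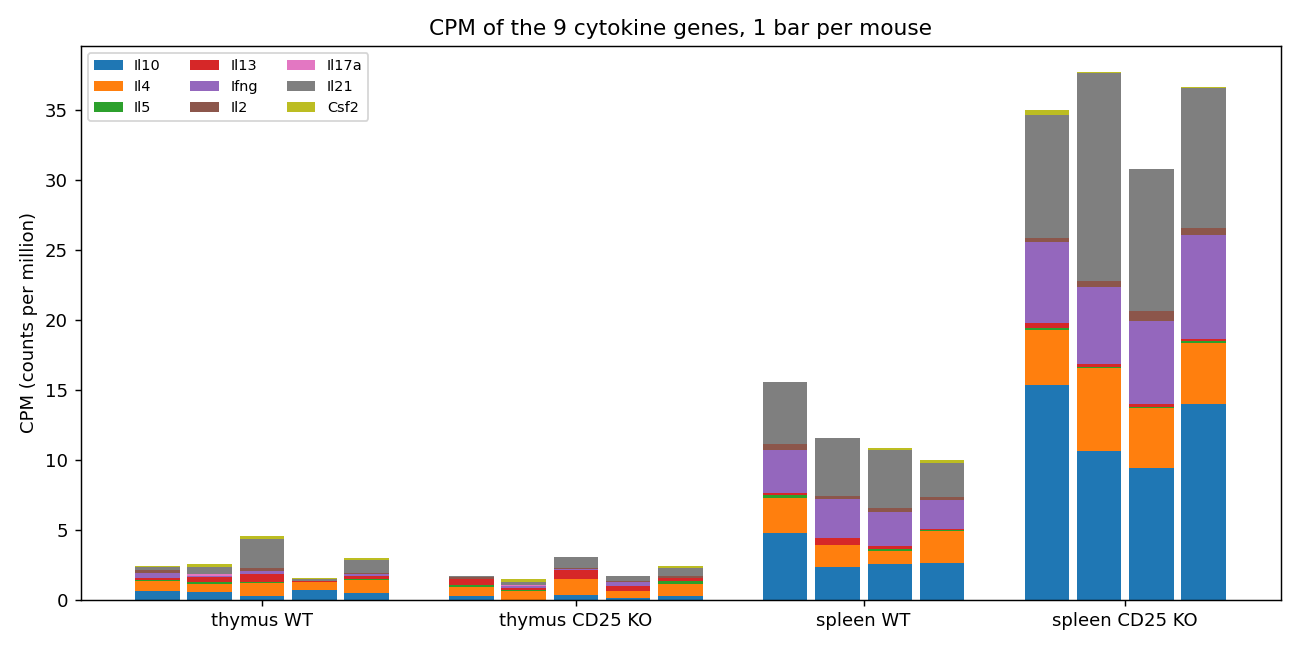
Stacked CPM of the 9 cytokine genes (y axis, from 0) in each mouse (1 bar each, grouped by tissue and genotype on the x axis, 1 color per gene). Splenic CD25 KO bars reach 30.8 to 37.7 CPM, above the splenic WT bars at 9.96 to 15.6, and consist almost wholly of *Il10*, *Il21*, *Ifng* and *Il4*.

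Levels of different genes are compared per kilobase of exonic length, meaning all bases covered by an exon of any annotated transcript. In splenic WT Tregs the order was *Il10* at 2.33 ± 0.862 CPM per kb, *Ifng* at 2.00 ± 0.331, *Il4* at 1.51 ± 0.584 and *Il21* at 0.719 ± 0.176 (SD, n = 4). Each of these 4 overlapped the next in its range over mice, and only the step from *Il21* down to *Il2* (0.267 ± 0.0960) was free of overlap. In splenic CD25 KO Tregs *Il10* led with 9.44 ± 2.11 CPM per kb, above the range of *Ifng* at 4.76 ± 0.677, which overlapped *Il4* at 3.76 ± 0.715. These levels take the *Ifng* row alone, without the reads of *Gm49751*, so the place of *Ifng* relative to *Il10* and *Il4* is uncertain in both genotypes. *Il21* at 2.08 ± 0.508 was below *Il4* and above *Il2* (0.439 ± 0.146) without overlap in either step. *Il21* is long, with 5259 exonic bases, so its many reads correspond to a lower level per length than those of *Il4*. Which annotated transcripts were expressed was not examined, and a shorter one would raise the level of *Il21* per kb. In the thymus all neighbours in the order overlapped, in both genotypes, with *Il4* first at 0.601 ± 0.139 CPM per kb in WT and 0.617 ± 0.196 in CD25 KO (SD, n = 5).

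Genes that tracked a cytokine across the 18 samples were sought by Pearson's r of log2 CPM after the mean of each tissue was removed, for the 3 members with at least 10 counts in at least 9 samples. For *Il10* the closest of 18686 genes were *Dcun1d4* (r = 0.896), *Prdm1* (r = 0.878) and *Fam234a* (r = 0.875). *Prdm1* encodes Blimp-1, a factor of effector lymphocytes known to act at *Il10*. For *Il4* they were *Malt1*, part of the antigen receptor signaling complex (r = 0.865), *Sh3rf2* (r = 0.852) and *Jarid2* (r = 0.847). *Sh3rf2* had a mean of 0 CPM in both thymic groups, so its likeness to *Il4* is that in the spleen (r = 0.935 over the 8 splenic mice). For *Il21* they were *Scp2* (r = 0.880), *Il1rl2* (r = 0.826) and *Sgk1* (r = 0.824). These are descriptions over samples that share their genotype contrast, without a test.

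Transcription factors known for cytokine genes also changed in splenic CD25 KO Tregs. Of 23 factors listed, 22 were tested in the spleen, and 14 were higher and 1 lower in CD25 KO at FDR < 0.01. Over all tested splenic genes, 5.90% were called higher in CD25 KO. The median log2 fold change of the list was 0.40 against -0.0065 over all genes. With all 18 samples in 1 fit 9 were higher and 1 lower, and by DESeq2 14 were higher and 2 lower. The largest increases were those of *Bhlhe40* (1.08, SE 0.0955, adjusted p = 2.03e-06), *Nfil3* (1.04, SE 0.112), *Tbx21* (1.00, SE 0.0775) and *Prdm1* (1.00, SE 0.0773), all by edgeR. *Tbx21* encodes T-bet, the factor of type 1 cells that drives *Ifng*, and its level rose from 13.8 ± 1.29 to 27.7 ± 1.25 CPM (SD, n = 4 each). *Bach2*, a repressor of effector programs, was the factor that fell, with a log2 fold change of -0.65 (SE 0.0832, adjusted p = 5.72e-05 by edgeR). *Gata3* of type 2 cells (0.41) and *Maf* (0.78), known for *Il10*, *Il4* and *Il21*, were among those called higher, and both are given in addition to the naming rule.

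In the thymus 1 factor was higher, *Ikzf3* (log2 fold change 0.45, SE 0.0662), and 5 were lower, where 6.16% of all tested genes were called in either direction. The median over the 22 tested was -0.12 against -0.0022 over all genes. The factors that fell were *Runx3* (-1.70, SE 0.189), *Nfil3* (-1.42, SE 0.287), *Prdm1* (-1.05, SE 0.182), *Irf4* (-0.81, SE 0.151) and *Nfatc2* (-0.39, SE 0.0848). *Prdm1* thus went down in thymic and up in splenic CD25 KO Tregs, and its effects differed between the tissues by 2.06 (adjusted p = 9.31e-07 by edgeR). With all 18 samples in 1 fit 8 thymic factors were lower. Over the list, 12 factors had a higher and 2 a lower effect in the spleen than in the thymus. Of all genes tested for the difference, 4.50% were called with the splenic effect higher.

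**Figure D4:**
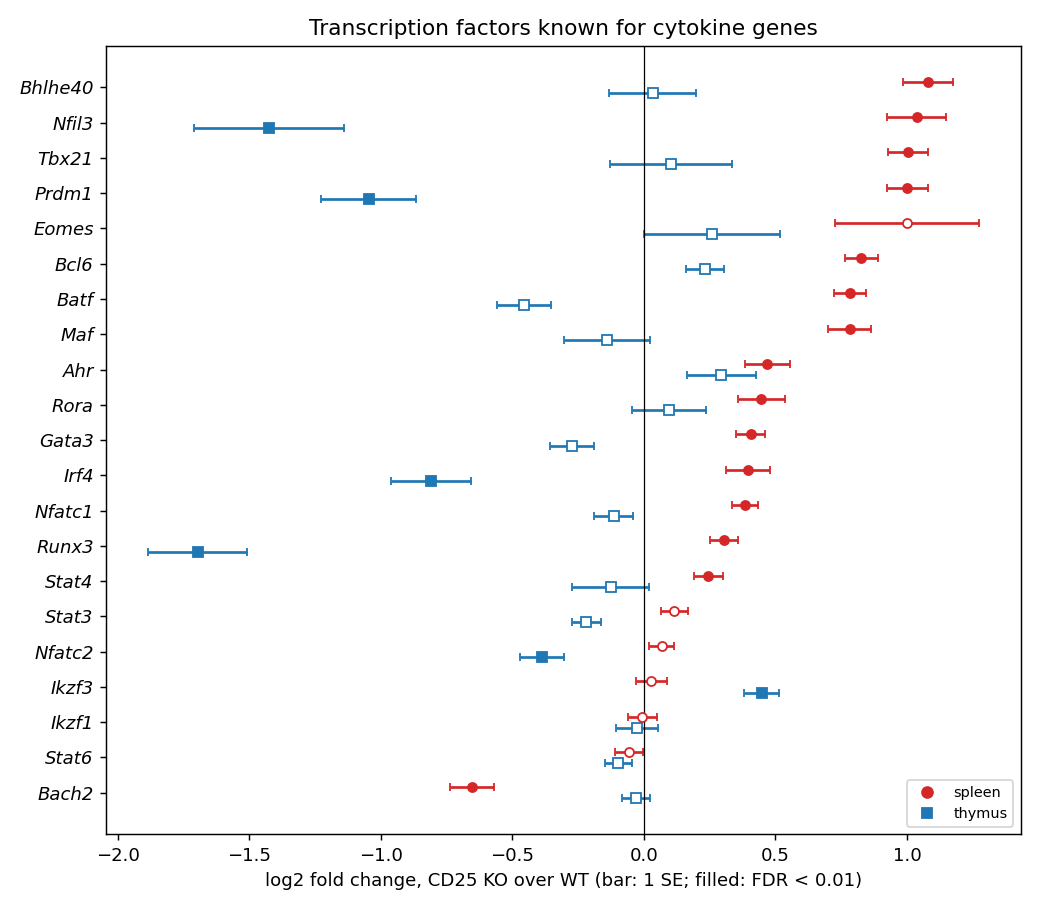
Log2 fold changes of CD25 KO over WT (x axis, bars 1 SE) for 21 of the 22 tested transcription factors known for cytokine genes (y axis, ordered by the splenic value), in spleen (red circles) and thymus (blue squares), with filled symbols at FDR < 0.01. In the spleen 14 filled values lie above 0, up to 1.08 for *Bhlhe40*, and *Bach2* lies below at -0.65, whereas 5 filled thymic values lie below 0, down to -1.70 for *Runx3*.

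Receptors of the 9 cytokines changed less uniformly. In the spleen 13 of 17 were tested, 2 were higher, *Il13ra1* (log2 fold change 0.81) and *Ifngr1* (0.55), and 3 were lower, *Il2ra* (-1.49), *Ifngr2* (-0.44) and *Il4ra* (-0.40), with a list median of -0.10. *Il2ra* is the deleted gene itself. Of all genes tested, 9.45% were called in either direction in the spleen and 6.16% in the thymus. The number of receptors called lower was 6 by DESeq2 and with upper-quartile scaling, and 1 was higher with all 18 samples in 1 fit. The 2 chains of the IFN-γ receptor therefore went in opposite directions, at 188 ± 5.01 against 276 ± 42.0 CPM for *Ifngr1* and 41.3 ± 3.94 against 30.5 ± 2.01 CPM for *Ifngr2* (SD, n = 4 each). In the thymus none of 13 was higher and 4 were lower, *Il2ra* (-1.90), *Il10ra* (-1.86), *Il2rb* (-0.79) and *Il4ra* (-0.46), with a median of -0.17. *Il10ra*, through which cells sense IL-10, fell from 25.4 ± 2.30 to 6.95 ± 3.75 CPM in thymic Tregs (SD, n = 5 each, adjusted p = 0.00266 by edgeR) and stood at 103 ± 10.5 and 106 ± 4.64 CPM in splenic WT and CD25 KO Tregs.

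Of 15 related cytokines outside the 9, 6 were tested in each tissue, and none was called higher. *Lta* (log2 fold change -1.15, SE 0.0731, adjusted p = 1.2e-07 by edgeR) and *Tnf* (-0.40, SE 0.0598), genes of the TNF family, were lower in splenic CD25 KO Tregs. *Tnf* (-1.29), *Lta* (-0.66) and *Ltb* (-0.30) were lower in thymic CD25 KO Tregs. The list median was -0.12 in the spleen and -0.50 in the thymus, and with all 18 samples in 1 fit 1 was lower in the spleen and 5 in the thymus. *Il3*, *Il9* and *Il20* had 0 counts in all 18 libraries. In the test of the difference, 1 of the 6 had a higher and 1 a lower effect in the spleen. The shares of all tested genes called in either direction were 9.45% in the spleen, 6.16% in the thymus and 6.98% for the difference.

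Of 12 genes of effector Tregs, 10 were called higher in splenic CD25 KO Tregs and none lower. Their median log2 fold change was 0.74. With all 18 samples in 1 fit 6 were called higher and none lower. The leading ones were *Gzmb* (3.41), the cytotoxic granule protease granzyme B, *Fgl2* (1.33), *Tigit* (1.28) and *Prdm1* (1.00). In the thymus 8 of the same 12 were lower and none higher, with a median of -1.16, led by *Klrg1* (18 to 91 counts in WT and 0 to 1 in CD25 KO mice), *Il1rl1* (-4.62), *Tigit* (-2.58) and *Fgl2* (-1.97). Of 8 resting Treg genes, 1 was higher in splenic CD25 KO Tregs, *Tcf7* (0.24), and 4 were lower, among them *Ly6c1* (-1.30), *Bcl2* (-1.01) and *Ccr7* (-0.60), with a median of -0.42, and none was called in the thymus (median -0.01). *Tcf7* was not called with upper-quartile scaling or with all 18 samples in 1 fit. Of all genes tested, 5.90% were called higher and 9.45% in either direction in the spleen, and 6.16% in either direction in the thymus. The study chose part of both lists on these samples, so their direction is not independent evidence. *Prdm1* and *Irf4* are counted both here and among the transcription factors.

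Genes listed as markers of other cells that make these cytokines were read in the same libraries. A bulk library cannot show whether Tregs or other cells carried these reads. All 4 T follicular helper markers were higher in splenic CD25 KO mice, *Bcl6* (log2 fold change 0.83), *Pdcd1* (0.78), *Cxcr5* (0.56) and *Sh2d1a* (0.50), and their summed level was 261 to 316 CPM in WT and 427 to 497 CPM in CD25 KO mice. None of the 4 was called in the thymus, and *Bcl6* is also on the list of transcription factors. Of all genes tested in the spleen, 5.90% were called higher in CD25 KO. Of 4 NK cell and ILC1 markers, *Klrb1c* alone was tested in the spleen and was higher (1.90, SE 0.389, adjusted p = 0.00290 by edgeR), and the list summed to 0.355 to 2.71 CPM in WT and 3.22 to 5.63 CPM in CD25 KO mice. This sum was almost wholly *Klrb1c*, since the group means of *Klrd1* were 0.157 (WT) and 0.139 CPM (CD25 KO), those of *Klre1* were 0.0188 and 0 CPM, and *Ncr1* was at 0 in all 8 splenic libraries. Of 7 markers of macrophages and dendritic cells 4 were tested, *Lyz2* was higher (1.03, SE 0.189, adjusted p = 0.00132 by edgeR), and the list ran from 34.8 to 40.1 CPM in WT and from 41.0 to 51.4 CPM in CD25 KO mice. The other 3 tested were not called, with log2 fold changes of -0.24 for *Csf1r*, -0.82 for *Adgre1* and 0.15 for *Zbtb46*, and *Cd14* averaged 0.191 and 0.0680 CPM. The part of these 3 marker lists in the splenic cytokine result was not tested.

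The remaining marker lists held no called gene in either tissue. CD8 T cell markers summed to 7.55 to 9.15 CPM in splenic WT and 8.09 to 10.5 CPM in splenic CD25 KO mice, B cell markers to 17.9 to 19.9 and 16.1 to 19.96 CPM, and γδ T cell markers to 4.47 to 6.05 and 3.47 to 5.60 CPM. These ranges overlapped between the genotypes. Markers of mast cells, basophils and eosinophils, which make IL-4 and IL-13, summed to 2.33 to 3.66 CPM in splenic WT and 2.13 to 2.92 CPM in CD25 KO mice, with *Mcpt8* and *Fcer1a* at 0 in all 8. NKT and innate-like T cell markers summed to 86.3 to 99.8 and 84.0 to 90.6 CPM, with *Zbtb16* at 0 in every splenic WT mouse and at 0 to 8 counts in CD25 KO mice. That sum was almost wholly *Slamf1*, with splenic means of 90.9 (WT) and 86.7 CPM (CD25 KO), against 0.0457 and 0.0542 CPM for *Klrb1b*. In the thymus none of the NK cell, γδ T cell, B cell, mast cell or macrophage markers was called.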

How the data were processed

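Total RNA of sorted Tregs was sequenced by the authors after ribosomal RNA depletion. Paired-end reads were mapped with STAR 2.5.0b to GRCm38 and counted on genes of GENCODE M13 with featureCounts 1.5.0 (versions per the submitters' processing notes), and the deposited values are raw counts, with no normalization, in a table of 50600 identifiers and 18 samples. No column was left out (0 unused). Strand and overlap settings of the counting are not given in the sources used here. If strand was not used, reads of *Il5*, *Il21* and *Csf2* cannot be told from those of the antisense genes *Gm12214*, *Gm12534* and *Gm12223*, which hold at most 1 count in any sample. Symbols and coordinates came from GENCODE M21 (50376 identifiers matched).

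In each tissue CD25 KO and WT were set against each other in edgeR 4.0.16 (R 4.3.3), with filterByExpr, TMM scaling, the quasi-likelihood test and Benjamini-Hochberg adjustment over all genes tested, called at FDR < 0.01, the study's threshold. The study used DESeq2, here an alternative (1.42.0). The difference between tissues was a contrast in 1 fit of 18 samples. CPM use TMM-scaled totals, exact permutation tests are two-sided over the absolute difference of means, and counting intervals are 95% exact binomial ones on summed counts. Without molecular identifiers, these intervals and the floor of 3 counts describe counting error alone. Totals per library (17239774 to 32639570 counts) leave the scarcest genes with a few reads. The scripts were tested on simulated data with 200 changed genes. These were drawn from well-covered genes only, so the simulation does not cover members near the floor.

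All 9 members are named. Of each other list (related cytokines, transcription factors, receptors, effector and resting Treg genes), up to 4 called genes with the largest log2 fold change per direction and tissue are named, and marker lists are given as counts and ranges. Certain listed genes are not reported here. The members and lists were chosen with earlier results of these data known. Alternatives were RLE and upper-quartile scaling, no filter, at least 10 counts in every sample, FDR < 0.05, a GC correction, DESeq2, all 18 samples in 1 fit, the thymic replicate number as a block, and each mouse left out. Adding *Gm49751* to *Ifng* was chosen after seeing the data.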

Additional observations from a re-analysis of the deposited data

Results flagged for a closer look

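Of 34 groups of 4 or 5 mice in which a cytokine could be tested for a mouse far from the others by Dixon's ratio (gap to the nearest mouse over the range of the group), 4 passed the 95% critical value, and chance alone passes about 1 in 20 groups. *Il10* in splenic WT replicate 1 was one, with 4.73 CPM against 2.34 to 2.59 CPM in the other WT mice and a ratio of 0.895. *Il21* in splenic WT replicate 4, at 63 counts against 100 to 118, had a ratio of 0.869. *Il17a* was the other, in thymic WT replicate 2 with 3 counts and in thymic CD25 KO replicate 2 with 1 count, each with a ratio of 1 because every other mouse of the group was at 0. Without splenic WT replicate 1 or any other splenic mouse, *Il10* kept a log2 fold change of 1.90 to 2.31 and *Il21* one of 1.35 to 1.62.

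The CD25 KO effect on *Il10* differed between the tissues by 3.46 on the log2 scale in the test of the difference itself (edgeR, adjusted p = 2.23e-04). The test rests on few thymic reads, since *Il10* had 0 to 15 counts per thymic mouse, did not pass the count filter in the thymus alone and was not tested with at least 10 counts required in every sample. All 4 splenic CD25 KO mice were above every splenic WT mouse, and 4 of 5 thymic CD25 KO mice were below every thymic WT mouse. Its value stayed between 3.12 and 3.75 over 24 alternatives in which *Il10* was tested.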

How the results depend on the processing

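The increases of *Il10*, *Ifng* and *Il4* in the spleen stayed called under every alternative run, with log2 fold changes of 1.90 to 2.31, 1.12 to 1.34 and 1.11 to 1.49. That of *Il21* lost its call with all 18 samples in 1 fit (1.53, adjusted p = 0.0179 by edgeR). The *Il10* difference between tissues was called in all 24 alternatives that tested it. With at least 10 counts in every sample *Il10* was not tested, and 0 members were called different between tissues. Without a filter there were 2, at FDR < 0.05 there were 3, and leaving out 1 mouse gave 1 to 2. The sign of thymic *Il4* turned to -0.14 with the GC correction, with or without the replicate block, and leaving out 1 mouse gave -0.15 to 0.14. The *Il13* difference ran from -0.82 to 0.22 when 1 mouse was left out, turning without splenic WT replicate 2. Exact permutation tests found 4 splenic members under 0.05 whichever mouse was left out, and 1 to 2 thymic ones, the second being *Csf2* without thymic CD25 KO replicate 2 (p = 0.0476). For the splenic members this adds little, since all 4 separated the groups fully. Each of their exact permutation p-values was 0.0286, the smallest that 3 against 4 mice allow. The causes were not tested.

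Over all genes, calls in the thymus numbered 3951 at FDR < 0.05, 2733 by DESeq2, 2881 with all 18 samples in 1 fit and 371 to 1087 with 1 mouse left out. In the spleen they numbered 3001 at FDR < 0.05, 795 with all 18 samples and 1099 to 1723 with 1 mouse left out, and for the difference 3149, 2193 by DESeq2 and 817 to 1489. The main splits of higher and lower calls were 539 and 508 in the thymus and 840 and 465 for the difference. Upper-quartile scaling changed them to 808 and 440 and to 616 and 669, and the GC correction changed the latter to 721 and 685. Thymic replicate numbers share no stated litter or day. Deviations of same-numbered mice correlated at -0.24 to 0.14, and so few pairs cannot decide whether such mice shared one. With the replicate block 209 thymic genes were called, 233 with the GC correction added, and 0 members in both. The block alone left 1 transcription factor and 4 effector Treg genes lower in the thymus. Depth limits *Il5*, *Il17a*, *Csf2* and, in the thymus, *Ifng* and *Il2*, to a few counts.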
